A study of Gallus gallus with 12 samples.

Results

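The cells described here are embryonic day 12 (E12) chick retinal cells that carried transcripts of NEUROD6 and LAMP5 or of their partner genes, and at least 1 transcript of the AP-2 transcription factors TFAP2A, TFAP2B or TFAP2C, which amacrine cells express. That last condition is broad, as its share of barcodes given below shows. They were chosen by a gate on unique molecular identifiers (UMIs), the counts of single captured transcripts. A cell passed with at least 2 of the 4 genes NEUROD6, LAMP5, NHLH1 and GLRA1 detected, NEUROD6 or LAMP5 among them, at least 1 UMI of TFAP2A, TFAP2B and TFAP2C together, and no UMI of OTX2 or VSX1. Of 56624 E12 barcodes, 2390 passed (4.22%), with 587, 628, 611 and 564 in the 4 libraries, and they are called gate cells below. They were set against the 40020 other E12 cells with at least 1 TFAP2 UMI, library by library.

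The study profiled single cells of chick (Gallus gallus) retina by droplet sequencing of transcript 3′ ends, with 95805 barcodes in 12 libraries. Whole retinas gave 4 libraries at E18 and 4 at E12, from untreated embryos of fertilised eggs, freed of pigment epithelium and pecten and dissociated with papain. A further 4 libraries came from E16 retinas, 2 dorsal and 2 ventral, enriched for ganglion cells with an antibody to Thy-1. The labels do not say how many embryos stand behind each library, so what a p-value weighs here is how far libraries differ among themselves, which may be technical.

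Amacrine cells are the inhibitory interneurons of the inner retina. They shape the signals that bipolar cells pass to ganglion cells, and most release either GABA or glycine. NEUROD6 is a basic helix-loop-helix factor that in mouse marks a small amacrine population reported to lack the usual markers of both transmitters, LAMP5 is a membrane protein of the LAMP family found in vesicles of neurons, NHLH1 is a helix-loop-helix factor of newly made neurons, and GLRA1 encodes a glycine receptor subunit. PRDM13 is a transcription factor of the amacrine lineage, and SLC6A9 encodes the glycine transporter GlyT1, which marks glycinergic amacrine cells.

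The E12 libraries held 14066 to 14225 barcodes and 25226502 to 27655687 UMIs each, with library medians of 1569 to 1745 UMIs per cell. The summed counts behind each E12 value were 985161 to 1199511 UMIs per library for gate cells and 17484411 to 19874369 for the other TFAP2 cells. Gate cells had library medians of 1495 to 1743.5 UMIs, close to the 1588 to 1756 of the other TFAP2 cells. A doublet score marked 317 gate cells (13.3%) and 5506 other cells (13.8%). Pairs of E12 libraries shared 278 to 298 cell barcodes, and at most 2 of these were in the gate in both libraries.

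The TFAP2 condition was wide at E12: 42410 barcodes (74.9%) held at least 1 TFAP2 UMI. Most gate cells passed it with room to spare, since 1624 of 2390 had 5 or more such UMIs and 189 had exactly 1. At the other threshold, 1838 gate cells had exactly 2 of the 4 genes, 487 had 3 and 65 had all 4, while 2684 cells stood just outside with NEUROD6 or LAMP5 alone. A further 1805 cells met every condition except that they held OTX2 or VSX1 UMIs, genes of photoreceptor and bipolar cells.

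Because the gate used these genes, their levels describe the gate and are no result. In CPM, the UMIs of a gene summed over cells and scaled to a common library total, LAMP5 stood at 891 ± 62.0 in gate cells and 91.8 ± 5.88 in other TFAP2 cells (SD, n = 4 libraries each). NEUROD6 stood at 646 ± 36.0 and 64.8 ± 1.70 CPM, NHLH1 at 469 ± 11.8 and 54.5 ± 2.81 CPM, and GLRA1 at 197 ± 13.0 and 36.6 ± 2.02 CPM, gate cells first in each pair. TFAP2B was at 2083 ± 36.5 CPM in gate cells and 1802 ± 37.0 CPM in other TFAP2 cells.

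The pair NEUROD6 and LAMP5 alone admitted 964 gate cells (40.3%), and LAMP5 with NHLH1 admitted 481 (20.1%). How often the 4 genes shared cells is given as a description, since they were chosen as going together in these data. Among the 23015 E12 cells with TFAP2 and without OTX2 and VSX1, each thinned to 1000 UMIs, cells with both LAMP5 and NHLH1 were 3.72 ± 0.274 times as many as the product of the 2 frequencies (SD, n = 4 libraries). The ratio was 3.34 ± 0.119 for NEUROD6 with LAMP5, 2.97 ± 0.593 for NHLH1 with GLRA1, 2.18 ± 0.320 for LAMP5 with GLRA1, 2.12 ± 0.317 for NEUROD6 with NHLH1 and 1.92 ± 0.231 for NEUROD6 with GLRA1. All 6 ratios were above 1 in every library. For NHLH1 with GLRA1 alone the E18 libraries gave a ratio below 1, 0.587 ± 0.256 at E18 and 2.97 ± 0.593 at E12, while the other 5 pairs stood between 1.75 and 3.92 at E18; the stages were not tested against each other.

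Passing on 2 of the 4 genes was not limited to amacrine-like cells. The same 2-of-4 condition was met by 10.4 ± 0.301% of cells with TFAP2 and without OTX2 and VSX1, by 9.31 ± 0.211% of cells with TFAP2 and with OTX2 or VSX1, by 5.12 ± 0.382% of cells without TFAP2 and with OTX2 or VSX1, and by 4.68 ± 0.326% of cells with none of these. At E18 the same shares were 16.9 ± 0.286%, 10.2 ± 1.23%, 0.565 ± 0.0984% and 6.59 ± 0.585%. At E12 the gate's class thus stood only slightly above TFAP2 cells with OTX2 or VSX1. Cells without TFAP2 give the background, which at E18 depended on which of them were taken.

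To see where gate cells fell, all E12 TFAP2 cells were clustered on 2000 variable genes without the 9 genes of the gate. Gate cells were concentrated in 2 of 25 clusters. In cluster 5, led by NFIX, PENK and NXPH2 beside haemoglobin genes, 34.0 ± 2.19% of cells passed. In cluster 16, led by BNC2, TAC3, ERBB4 and the vesicular glutamate transporter SLC17A8, 18.1 ± 3.22% passed (SD, n = 4 libraries). The haemoglobin genes in cluster 5 came from 4 of its 2914 cells, which held 99.6% of the cluster's haemoglobin UMIs. Among the other 23 clusters the highest mean was 6.21 ± 1.43%, with 7.41% in its highest library, and 3 clusters had no gate cell.

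These 2 clusters held 51.8%, 47.8%, 40.6% and 46.5% of the gate cells of the 4 libraries, against 6.36%, 6.09%, 6.17% and 6.02% of the other TFAP2 cells. Their share rose with the number of gate genes a cell held, among cells with no OTX2 or VSX1. The 2 clusters were picked for their share of gate cells, so such a rise follows in part from the choice and is a description. It was 1.29 ± 0.143% with none of the 4 genes, 19.4 ± 1.39% with 1, 43.6 ± 4.00% with 2, 56.4 ± 8.02% with 3 and 72.3 ± 10.8% with all 4 (SD, n = 4 libraries). The remaining 1276 of 2390 gate cells lay outside both clusters, among them 142 in a cluster led by the ganglion cell factors POU4F1 and POU4F2 and 84 in one led by the horizontal cell genes LHX1 and ONECUT3.

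**Figure D1:**
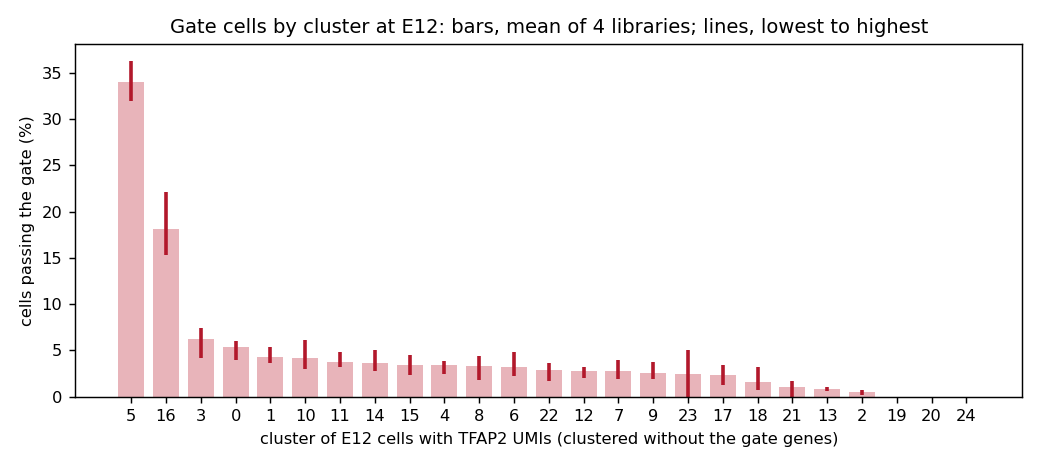
Share of the cells of each cluster that passed the gate, for the 25 clusters of E12 cells with TFAP2 UMIs, in percent (bars, mean of 4 libraries; lines, lowest to highest library). Clusters 5 and 16 stand at 34.0% and 18.1%, the next highest mean is 6.21%, and its highest library is at 7.41%.

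The 9 amacrine markers of the list summed to 3076 to 3263 CPM in gate cells and 3134 to 3263 CPM in other TFAP2 cells, so the sums overlapped. The list includes the given markers SLC6A9 and PRDM13, and a sum does not show the level of each marker. In the other TFAP2 cells without OTX2 and VSX1 the sum was 3559 to 3678 CPM, above every gate library. Gate cells inside those 2 clusters differed from the other gate cells, which is given as a description with no test because the clusters were made from these genes. By raw library totals, SLC6A9 was at 316 ± 15.8 CPM in gate cells of the 2 clusters and 167 ± 7.18 CPM in gate cells elsewhere. PRDM13 was at 253 ± 27.5 and 163 ± 9.76 CPM, in the same order. GAD1, which makes GABA, was at 35.6 ± 10.5 CPM inside and 95.6 ± 13.7 CPM elsewhere, and the ganglion cell factor POU4F1 at 17.3 ± 3.45 and 162 ± 22.9 CPM. The gate as a whole is therefore called by its rule, and its values mix cells of both kinds. The 2465 cells of these clusters that missed the gate had LAMP5 at 619 ± 23.3 CPM, NEUROD6 at 362 ± 35.2 CPM and SLC6A9 at 239 ± 15.1 CPM.

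Gate cells were then compared with the other TFAP2 cells over all genes, with edgeR's quasi-likelihood test on UMIs summed per library, the library as a block, and Benjamini-Hochberg adjustment. A gene was called at an adjusted p under 0.05 with at least a 2-fold difference. Of 12187 genes tested, 127 were higher (1.04% of genes tested) and 421 lower (3.45%) in gate cells, 4.5% in either direction. The lower calls followed the gate's own exclusion in large part, as 181 genes were lower and 137 higher when the other cells, too, had to lack OTX2 and VSX1. When both groups also had to hold at least 5 TFAP2 UMIs, 74 were lower and 127 higher. Levels below are CPM scaled by the trimmed mean of M values within each comparison.

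The glycine transporter SLC6A9 was at 239, 233, 231 and 221 CPM in gate cells of the 4 libraries, against 61.0, 62.1, 60.5 and 61.8 CPM in other TFAP2 cells. PRDM13 was at 212, 217, 196 and 190 CPM in gate cells, against 67.4, 66.4, 66.9 and 71.3 CPM. For both genes every gate value lay far above every value of the other cells. The log2 differences were 1.91 ± 0.06 for SLC6A9 and 1.59 ± 0.06 for PRDM13 (SE). Both genes had been picked as markers of these cells from the same data, so these are descriptions. The E18 libraries below are other samples, but that comparison was added with the data known and is no independent test.

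Single cells showed the same order. After thinning to 1000 UMIs, 21.04 ± 0.607% of gate cells had an SLC6A9 UMI, against 5.91 ± 0.187% of other TFAP2 cells and 3.75 ± 0.203% of cells with OTX2 and no TFAP2, taken as the background. For PRDM13 the shares were 17.995 ± 0.450%, 6.35 ± 0.151% and 3.89 ± 0.281%, in the same order. All 2390 gate cells had at least 1000 UMIs and entered these shares.

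Of the genes of glycine handling and reception, 6 were tested at E12, 1 was higher (SLC6A9) and 1 lower (GLDC, of the glycine cleavage system), with a median log2 difference of 0.05 against 0.00069 over all genes. The GLDC call was lost, at a log2 difference of 0.05, when the other cells had to lack OTX2 and VSX1. The receptor subunits GLRA2, GLRA3 and GLRA4 and their partner GLRB had log2 differences of −0.41, 0.17, 0.61 and −0.08, and none was called.

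None of the 5 tested genes of GABA synthesis, transport and breakdown was called at E12, with a median log2 difference of −0.42. GAD1 was at 74.8, 69.7, 68.4 and 80.7 CPM in gate cells, against 105, 112, 107 and 104 CPM in other TFAP2 cells. The groups did not overlap, but the log2 difference of −0.55 ± 0.08 (SE) was under 2-fold. GAD2 differed by −0.66 ± 0.12, while SLC32A1, which loads both transmitters into vesicles, differed by 0.20 ± 0.07. Gate cells with a GAD1 UMI after thinning made up 6.07 ± 0.501%, against 9.96 ± 0.310% of other TFAP2 cells and 2.37 ± 0.359% in the background.

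Among 42 tested amacrine and neuronal transcription factors, 4 were higher in gate cells (PRDM13, NEUROD2, EBF3 and NFIX) and 5 lower (FOXN4, BHLHE23, TFAP2D, ISL1 and SOX2), with a median of 0.08. Against other cells without OTX2 and VSX1, 40 were tested, PRDM13, NEUROD1, NEUROD4, EBF3, NFIB and NFIX were higher and LHX9, SOX2 and MAF lower. EBF3, an early B-cell factor family member, was at 913, 939, 778 and 758 CPM in gate cells, against 244, 232, 228 and 225 CPM in other TFAP2 cells. The lowest gate library stood over 3 times above the highest other one, and the log2 difference was 1.87 ± 0.03 (adjusted p = 7.9e-198, edgeR). The background matters for this gene: 35.1 ± 2.48% of gate cells had an EBF3 UMI after thinning, against 10.7 ± 0.261% of other TFAP2 cells, which is below the 19.2 ± 0.779% of cells with OTX2 and no TFAP2.

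NFIX, a nuclear factor I family member, was at 140, 155, 136 and 126 CPM in gate cells, against 29.4, 25.5, 27.8 and 30.2 CPM, a log2 difference of 2.31 ± 0.08 (adjusted p = 2.57e-95, edgeR). TFAP2D, an AP-2 gene that the gate did not use, ran the other way, at 49.2, 69.7, 46.6 and 53.1 CPM in gate cells against 157, 164, 162 and 156 CPM (log2 −1.54 ± 0.08, adjusted p = 2.32e-55, edgeR). Against cells without OTX2 and VSX1 its log2 difference was −0.68, not called. PAX6, a factor of all amacrine cells, was at 1485 ± 49.8 CPM in gate cells and 1242 ± 23.8 CPM in the others, and BARHL2 at 78.9 ± 11.5 and 72.9 ± 1.78 CPM; neither was called.

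A peptide precursor of the neuropeptide list and a pair of secreted-protein genes outside the lists were also higher. PENK, the enkephalin precursor, was at 125, 136, 95.02 and 128 CPM in gate cells, against 27.3, 27.3, 29.8 and 31.9 CPM in other TFAP2 cells (log2 2.06 ± 0.09, adjusted p = 4.06e-77, edgeR). SS2, a somatostatin precursor gene of birds, was at 720, 735, 586 and 539 CPM against 182, 196, 182 and 204 CPM (log2 1.76 ± 0.04, adjusted p = 9.41e-165, edgeR). NXPH2, a secreted ligand of neurexins, was at 321, 296, 231 and 303 CPM against 57.1, 59.3, 57.3 and 59.2 CPM (log2 2.30 ± 0.06, adjusted p = 2.09e-142, edgeR). In all 3 genes the gate values were well clear of the others in each library. The rule that named these genes had asked for the same sign in all libraries. PENK was detected after thinning in 6.85 ± 1.04% of gate cells, 1.89 ± 0.189% of other TFAP2 cells and 2.92 ± 0.356% of the background.

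The rest of the genes named by the rule for higher genes were GNG4, a G-protein gamma subunit (log2 2.34 ± 0.13), TMCC3 (1.93 ± 0.09), ARHGAP28, a GTPase activating protein (1.93 ± 0.10), SYT9, a synaptotagmin (1.92 ± 0.06), TCF4Z (1.78 ± 0.11) and TRHDE, an enzyme that degrades thyrotropin-releasing hormone (1.74 ± 0.07). SYT9 had the highest level of these, at 284, 244, 252 and 255 CPM in gate cells against 70.4, 65.0, 65.9 and 73.2 CPM in other TFAP2 cells. Among receptor and guidance genes, NRP1 (log2 1.13) and EPHA3 (1.48) were higher, and ROBO1 (−1.67) and NTNG2 (−1.13) lower, out of 36 guidance genes tested with a median of −0.29. Against other cells without OTX2 and VSX1, ROBO1 was at −0.69 and NTNG2 at −0.14, not called. None of 23 synaptic and maturation genes was called, with a median of −0.23, and of 54 adhesion genes none was higher and 3 lower (CDH6, SLITRK5 and CBLN4). DSCAML1 was called higher, and the same 3 adhesion genes lower, against other cells without OTX2 and VSX1. Over all 12187 genes tested at E12, 1.04% were higher and 3.45% lower.

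Receptors and transporters for other transmitters gave few calls, most at low levels. Of 10 GABA receptor subunits, GABRA5 was higher, at 4.07 ± 0.865 CPM in gate cells and 1.20 ± 0.448 CPM in other TFAP2 cells, and GABRR1 lower (log2 −2.05, but −0.12 and not called against cells without OTX2 and VSX1). Of 21 glutamate genes, SLC17A8 was higher, at 6.15, 6.02, 4.75 and 8.17 CPM in gate cells against 1.79, 1.73, 1.17 and 1.39 CPM, and GRIK1 (−1.56), GRM2 (−1.14) and GRM5 (−1.38) were lower, GRIK1 at −0.15 and not called against cells without OTX2 and VSX1. The SLC17A8 difference of 2.03 became −0.62 in cells with 3 of the 4 gate genes. Among E12 gate cells clustered on their own, SLC17A8 was at 101 CPM by raw totals in the cluster led by BNC2 (140 cells). In the other E12 gate cells it was at 0.989 CPM. Of 7 genes of cholinergic and related cells FEZF1 was lower (−1.15), and of 10 neuropeptide genes PENK was higher and NPY lower (−1.74). CHAT, SST and PNOC were called lower as well against other cells without OTX2 and VSX1, where PENK was again the higher neuropeptide gene.

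**Figure D2:**
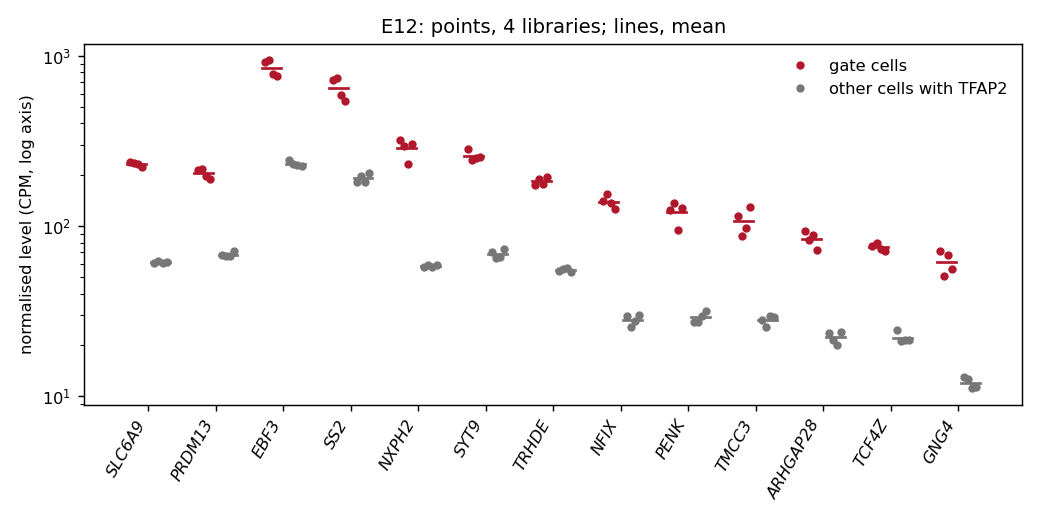
Level of 13 genes in gate cells and in the other cells with TFAP2 UMIs at E12 (CPM scaled within the comparison, log axis; points, 4 libraries; lines, mean). The 4 gate values of SLC6A9 lie between 221 and 239 CPM and those of the other cells between 60.5 and 62.1 CPM. The 13 genes are given markers or were named for being called with the same sign in all libraries. Their separation describes that choice.

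Genes of several other retinal classes were lower in gate cells, in part by the rule, which removed every cell with OTX2 or VSX1 from the gate and not from the others. Of bipolar markers 6 of 8 tested were lower and none higher, with summed levels of 208 to 252 CPM in gate cells and 518 to 536 CPM in other TFAP2 cells. Of 12 glial and progenitor markers 8 were lower, with summed levels of 233 to 273 CPM against 577 to 620 CPM, and of 10 cell cycle markers 7 were lower, with 101 to 123 CPM against 277 to 309 CPM. Against other cells that also lacked OTX2 and VSX1, 1 of 7 bipolar markers was lower (NETO1) and 1 higher (TRPM1), and their summed level in those cells was 302 to 338 CPM. In that comparison 5 of 12 glial and progenitor markers, 1 of 9 cell cycle markers (UBE2C) and 1 of 27 neurogenesis genes (HES5) were lower. With at least 5 TFAP2 UMIs in both groups as well, no gene of the bipolar, glial and progenitor or neurogenesis lists passed both the edgeR test and the 2-fold limit, and the median log2 differences were −0.31, −0.47 and −0.01. Of 30 neurogenesis genes 6 were lower, NEUROG2, NEUROG1, DLL1, DLL4, JAG2 and HES5, and none higher. DLL1, a Notch ligand, was at a log2 difference of 0.14, not called, when both groups held at least 5 TFAP2 UMIs and lacked OTX2 and VSX1. The progenitor gene FABP7 was at 47.1, 48.2, 38.0 and 40.9 CPM in gate cells against 152, 163, 161 and 166 CPM, but was no longer 2-fold different when both groups held at least 5 TFAP2 UMIs (log2 −0.90).

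Ganglion cell markers summed to 1212 to 1521 CPM in gate cells and 841 to 882 CPM in other TFAP2 cells, and of the 12 in the list EBF3 alone was called higher. EBF3 itself stood at 847 ± 92.1 and 232 ± 8.27 CPM, gate cells first, so the higher sum came from EBF3 and not from the rest of the list. Against other cells without OTX2 and VSX1 the list had a median log2 difference of −0.46. POU4F1 was at 93.2, 125, 99.8 and 108 CPM in gate cells against 118, 121, 117 and 120 CPM (log2 −0.15, not called), so RNA of ganglion cells was present in both groups; its part in the results was not tested. The haemoglobin genes HBA1, HBBA and HBM were called lower. In this list of 9 blood and immune genes, HBZ, HBBR, CSF1R, C1QA and C1QB were at 0 in gate cells. HBA1 was at 7.17, 58.5, 1.90 and 2.04 CPM in gate cells against 354, 257, 13.8 and 50.1 CPM in other TFAP2 cells, where 14 cells of the 42410 had at least 10% haemoglobin UMIs, with 7, 5, 1 and 1 in the 4 libraries and 1 of them in the gate. Without the library block the HBBA and HBM calls were lost (adjusted p = 0.0571 and 0.0661, edgeR).

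Gate cells were not uniform among themselves. At E12, 1344 (56.2%) held NEUROD6 and LAMP5, 621 (26.0%) LAMP5 and NHLH1 without NEUROD6, 268 (11.2%) NEUROD6 without LAMP5, and 157 (6.57%) LAMP5 with GLRA1 alone. The 268 cells with NEUROD6 and no LAMP5 were compared with the 778 with LAMP5 and no NEUROD6 by the same test. Both groups were cut from the gate by its own genes, so the p-values below describe that split and do not set cell types apart. The groups also differ in another gate gene, since NHLH1 was held by 149 of the 268 (55.6%) and 621 of the 778 (79.8%), so what goes with NEUROD6, LAMP5 or NHLH1 cannot be told apart. Of 4182 genes tested, 7 were higher (0.167%) and 10 lower (0.239%) in the NEUROD6 cells, 0.407% in either direction. The sums behind this comparison were small, 57 to 72 NEUROD6 cells a library, and DESeq2 called 0 higher and 3 lower, giving no adjusted p for 2923 of the genes; 328 genes had an unadjusted p under 0.05 in edgeR.

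EBF3 was at 644, 639, 594 and 620 CPM in the NEUROD6 cells, against 1781, 1795, 1569 and 1489 CPM in the LAMP5 cells, with no overlap (log2 −1.41 ± 0.09, adjusted p = 1.45e-39, edgeR). SS2 was at 122, 140, 575 and 267 CPM against 1578, 1588, 1031 and 1174 CPM (log2 −2.28 ± 0.13, adjusted p = 5.99e-52, edgeR). VIP, the vasoactive intestinal peptide precursor, was higher in the NEUROD6 cells, at 66.6, 62.4, 188 and 315 CPM against 29.1, 18.3, 21.4 and 12.8 CPM (log2 2.88 ± 0.34, adjusted p = 1.37e-13, edgeR), with libraries 3 and 4 well above libraries 1 and 2. The dopamine receptor DRD5 (log2 −2.17) and C1H11ORF87 (−1.18) were lower. The other 10 genes named by the rule lost their call in at least 1 alternative, while these 5 kept it wherever an adjusted p could be had. SLC6A9 was at 178 ± 15.9 CPM in the NEUROD6 cells and 230 ± 8.64 CPM in the LAMP5 cells, and GAD1 at 80.8 ± 24.5 and 93.2 ± 3.11 CPM; neither was called.

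The same gate passed 1242 cells at E18, 309, 311, 308 and 314 in the 4 libraries. It passed none of 1334 TFAP2 cells in the Thy-1 enriched E16 libraries, which allows a share of up to 0.225% for counting error alone. Gate cells made up 12.1%, 12.5%, 12.3% and 12.2% of TFAP2 cells at E18, against 5.61%, 5.80%, 5.75% and 5.37% at E12. The stages did not overlap, and the means of 12.3 ± 0.173% and 5.63 ± 0.191% (SD, n = 4 each) differed by 6.66 points (two-sided exact permutation test, p = 0.0286, the smallest that 4 against 4 allows). After thinning to 1000 UMIs the shares were 7.92 ± 0.339% and 3.93 ± 0.0602%, E18 first, and the difference 4.00 points. Of all barcodes, gate cells were 4.02%, 4.13%, 4.24% and 4.16% at E18, against 4.13%, 4.43%, 4.31% and 4.01% at E12, where the stages overlap (difference −0.0820 points, exact permutation p = 0.486). The wider TFAP2 class differs between the stages, with 33.7% of barcodes at E18 and 74.9% at E12, so the larger share of TFAP2 cells goes with a smaller TFAP2 class.

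Within the E18 libraries, gate cells were compared with the rest of the 10107 TFAP2 cells in the same way. The 4 E18 libraries held 16436527 to 16967777 UMIs each, and the gate sums 720381 to 803015 UMIs. Of 11307 genes tested, 367 were higher (3.25%) and 1371 lower (12.1%) in gate cells, 15.4% in either direction. SLC6A9 was at 782, 859, 744 and 869 CPM in gate cells, against 123, 120, 109 and 125 CPM in other TFAP2 cells, a log2 difference of 2.77 ± 0.05 (adjusted p = 1.89e-53, edgeR). PRDM13 was at 127, 123, 101 and 107 CPM against 24.3, 25.6, 23.5 and 24.4 CPM (log2 2.22 ± 0.11, adjusted p = 7.45e-28, edgeR). For both markers all 4 gate values were above all 4 others. After thinning, which kept 1230 of the 1242 gate cells, 50.8 ± 2.65% of gate cells had an SLC6A9 UMI, against 9.39 ± 0.327% of other TFAP2 cells and 2.23 ± 0.157% of the background.

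GABA genes separated the groups at E18. Of 5 tested, 3 were lower in gate cells, GAD1, GAD2 and SLC6A11, and none higher, with a median of −2.40 against −0.0084 over all genes. GAD1 was at 52.3, 72.1, 64.0 and 87.9 CPM in gate cells, against 573, 587, 575 and 572 CPM in other TFAP2 cells (log2 −3.05 ± 0.08, adjusted p = 8.93e-46, edgeR). Gate cells with a GAD1 UMI after thinning were 2.85 ± 0.954%, near the background of 1.66 ± 0.168% and far from the 29.2 ± 0.1003% of other TFAP2 cells. The low GAD1 level did not hold for all gate cells. Among E18 gate cells clustered on their own, GAD1 was at 431 CPM by raw totals in the cluster led by NTS. That cluster had 123 cells, 18.7% of them scored as doublets. In every other cluster of gate cells GAD1 was at or below 42.9 CPM. SLC32A1 was at 427, 479, 476 and 547 CPM in gate cells against 321, 331, 372 and 361 CPM, no overlap but a log2 difference of 0.48 ± 0.05, not called.

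**Figure D3:**
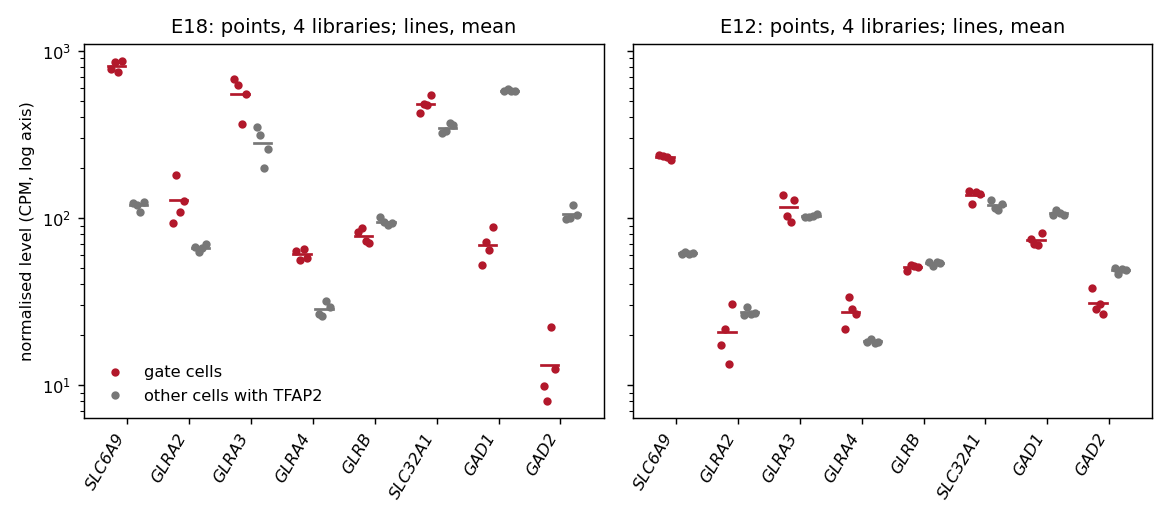
Level of glycine and GABA genes in gate cells and in other cells with TFAP2 UMIs at E18 (left) and E12 (right), in CPM scaled within each comparison (log axis; points, 4 libraries; lines, mean). At E18 the 4 gate values of GAD1 lie between 52.3 and 87.9 CPM and those of the other cells between 572 and 587 CPM, against 68.4 to 80.7 and 104 to 112 CPM at E12.

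Of 6 glycine genes tested at E18, SLC6A9 and GLRA4 were higher and GLDC lower, with a median of 0.96. Against other E18 cells without OTX2 and VSX1, SLC6A9 alone was called higher and GLDC lower. GLRA3 (log2 0.98 ± 0.05) and GLRA2 (0.94 ± 0.10) stayed under 2-fold. The difference between the stages in the gate's log2 difference, tested as an interaction over 11870 genes (2660 past an adjusted p of 0.05, 22.4%), was −2.46 ± 0.14 for GAD1 (adjusted p = 4.21e-25, edgeR). It was 1.38 ± 0.20 for GLRA2 (8.29e-08) and 0.85 ± 0.09 for GLRA3 (1.2e-12), and −0.17 ± 0.14 for GLRB (0.434).

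Many E12 differences were found again in the E18 libraries. Of the 127 genes higher in gate cells at E12, 111 were tested at E18 and 86 were higher there too, which is 77.5% of those tested and 23.4% of the 367 higher at E18; 2.92% of all genes tested at both stages were higher at E18. Of the 421 lower genes, 320 were tested and 230 were lower at E18, 71.9% of those tested and 16.8% of the 1371, against 11.1% of all genes tested at both. At both stages the rule removed cells with OTX2 or VSX1 from the gate and not from the others. Shared lower calls thus follow in part from the rule. Against other cells without OTX2 and VSX1, 120 of the 421 kept their call at E12 and 1095 of the 1371 at E18. The overlap between the stages was not counted in that setting. The collagen gene COL14A1 was the 1 gene higher at E12 and lower at E18. The 4 genes SLITRK5, CENPF, COBLL1 and LOC107054559 were lower at E12 and higher at E18. EBF3 (log2 2.45), NFIX (2.31), NXPH2 (2.91), PENK (2.34), SS2 (2.36), GNG4 (2.19), SYT9 (2.02) and TRHDE (2.30) were all higher at E18 in sums over all gate cells. Of these, SS2 was called in 13 of 16 alternatives, with log2 differences between 0.24 and 2.82. NFIX was at 1.06 with at least 5 TFAP2 UMIs in both groups and PENK at 1.17 with at least 2, both still called. NXPH2 was at 1532, 1327, 1328 and 1305 CPM in E18 gate cells, against 184, 179, 179 and 185 CPM in the other E18 TFAP2 cells.

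Other E18 genes named by the rule were RPP25 (log2 2.87), NECAB2, a calcium-binding protein of neurons (2.92), RGS16, a G-protein regulator (2.88), ZFPM2 (3.01), KERA (3.78) and NTS, the neurotensin precursor (3.85), all higher. MEIS2 was lower, at 293 ± 51.8 CPM in gate cells and 1092 ± 48.6 CPM in other TFAP2 cells (log2 −1.90), and so were GBX2 (−5.16) and ISL1 (−3.98). DOC2B (2.93) was higher, but a stricter gate of 3 of the 4 genes took its log2 difference to 0.44, not called. NFIB was at 590, 601, 629 and 623 CPM in gate cells against 157, 169, 161 and 165 CPM in other TFAP2 cells (log2 1.91 ± 0.06, adjusted p = 1.53e-42, edgeR). These are sums over all gate cells. When E18 gate cells were clustered on their own, NFIB was uneven by raw totals. It was at 3815, 655 and 1179 CPM in the clusters led by NFIB, NTS and NRN1 (205, 123 and 25 cells). In every other cluster of gate cells NFIB was at or below 103 CPM. SLC17A8, at 33.9, 29.4, 45.7 and 51.5 CPM against 2.21, 3.66, 2.43 and 5.88 CPM, was the 1 gene higher among 21 glutamate genes, of which 6 were lower. By raw totals SLC17A8 was at 547 CPM in the E18 gate cluster led by TAC3 (76 cells) and listed at 0 in the other gate cells.

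Of 36 amacrine and neuronal factors at E18, 6 were higher in gate cells, PRDM13, NEUROD4, EBF1, EBF3, NFIB and NFIX, and 16 lower, with a median of −0.50. NEUROD4 was not called, at a log2 difference of −0.41, when both groups held at least 5 TFAP2 UMIs. The synaptic and maturation list had 3 higher genes, CPLX1, CALB2 and PVALB, and 9 lower of 23. CPLX1, a complexin of vesicle release, had a log2 difference of −0.84, not called, with the stricter gate. CALB2 was at 4931 ± 434 CPM in gate cells and 2414 ± 83.2 CPM in other TFAP2 cells. Of 35 guidance genes, NRP1 and EPHB3 were higher and 16 lower, among them ROBO2 at 47.4 ± 8.89 and 380 ± 12.4 CPM. Of 54 adhesion genes CDH7, PCDH8 and SLITRK5 were higher and 13 lower. Over all 11307 genes tested at E18, 3.25% were higher and 12.1% lower, and the list counts here are to be read beside these shares. Against other E18 cells without OTX2 and VSX1, CALB2, NRP1 and SLITRK5 were not called higher, while DSCAML1 was. VIP was listed at 0 in all gate libraries at E18 and at 50.2, 26.2, 15.04 and 23.5 CPM in other TFAP2 cells, at least 29.1-fold lower against a floor of 3 UMIs over the group. Of the cholinergic list 5 of 7 genes were lower and none higher.

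Horizontal cell genes were prominent among the lowest. ONECUT1, a factor of horizontal cell fate, was at 26.9, 32.0, 9.14 and 13.8 CPM in gate cells against 350, 365, 290 and 291 CPM in other TFAP2 cells. Of 9 horizontal cell markers 6 were lower and none higher, and of 9 bipolar markers 7 were lower and SCGN higher. Against E18 cells without OTX2 and VSX1, 6 of 9 horizontal cell markers were again lower, and of 8 bipolar markers ISL1 and NETO1 alone. Horizontal cell markers summed to 703 to 740 CPM in gate cells and 2131 to 2282 CPM in other TFAP2 cells. Glial and progenitor markers summed to 553 to 1161 CPM against 2812 to 3592 CPM, the gate value of the third library being the highest, and their part in the results was not tested.

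NTS depended on how many TFAP2 UMIs a gate cell held. By raw totals at E18, gate cells with 1 to 4 TFAP2 UMIs had NTS at 1905 ± 1005 CPM and those with at least 5 at 11.9 ± 4.81 CPM. In other TFAP2 cells the same levels were 94.3 ± 99.8 and 16.9 ± 1.06 CPM. With at least 5 TFAP2 UMIs in both groups the log2 difference of NTS at E18 was −0.48 (adjusted p = 0.256, edgeR). SS2 was likewise split, at 5059 ± 1492 CPM with 1 to 4 and 506 ± 237 CPM with at least 5 TFAP2 UMIs in gate cells, and NEUROD4 stood at 347 ± 21.7 and 12.9 ± 2.34 CPM. SLC6A9 did not share this pattern, at 743 ± 62.8 and 833 ± 64.4 CPM.

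By the genes that admitted them, the E18 gate cells fell into 714 (57.5%) with NEUROD6 and LAMP5, 351 (28.3%) with LAMP5 and NHLH1 without NEUROD6, 108 (8.70%) with LAMP5 and GLRA1 alone, and 69 (5.56%) with NEUROD6 without LAMP5. The values below describe classes made by the gate's own genes and carry no test. NTS was at 1042, 1164, 2561 and 3061 CPM in the cells with LAMP5 and NHLH1, and between 0 and 43.7 CPM in every library of the other 3 classes. All 4 libraries of that class were thus high and all others near 0.

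In the same LAMP5 and NHLH1 class SS2 was at 5210 ± 1464 CPM, against 416 ± 120 CPM with NEUROD6 and LAMP5, 303 ± 148 CPM with NEUROD6 alone and 859 ± 920 CPM with LAMP5 and GLRA1. DOC2B, a calcium sensor of vesicle release, was at 722 ± 160 CPM in it, 41.7 ± 15.98 CPM with NEUROD6 and LAMP5, listed at 0 with NEUROD6 alone, and at 6.52 ± 7.56 CPM with LAMP5 and GLRA1. The tachykinin precursor TAC3 was highest in the cells with NEUROD6 and LAMP5, at 298 ± 94.0 CPM. NXPH2 was at 1845 ± 245 CPM in that class and 1716 ± 306 CPM with LAMP5 and GLRA1, against 564 ± 60.3 CPM with LAMP5 and NHLH1 and 330 ± 202 CPM with NEUROD6 alone. NFIB was at 1648 ± 627 CPM with NEUROD6 alone and 8.62 ± 17.2 CPM with LAMP5 and GLRA1.

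SLC6A9 differed less between the classes. At E18 it was at 847 ± 53.7 CPM with NEUROD6 and LAMP5, 730 ± 277 CPM with NEUROD6 alone, 643 ± 57.4 CPM with LAMP5 and NHLH1 and 1099 ± 302 CPM with LAMP5 and GLRA1. At E12 it was at 251 ± 13.1, 158 ± 13.4, 214 ± 12.8 and 182 ± 36.2 CPM in the same order. The E12 classes already differed in EBF3, which was at 484 ± 98.2 CPM with NEUROD6 and LAMP5, 555 ± 25.6 CPM with NEUROD6 alone, 1690 ± 148 CPM with LAMP5 and NHLH1 and 704 ± 212 CPM with LAMP5 and GLRA1. NTS at E12 was at or below 26.7 CPM in every library of every class.

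**Figure D4:**
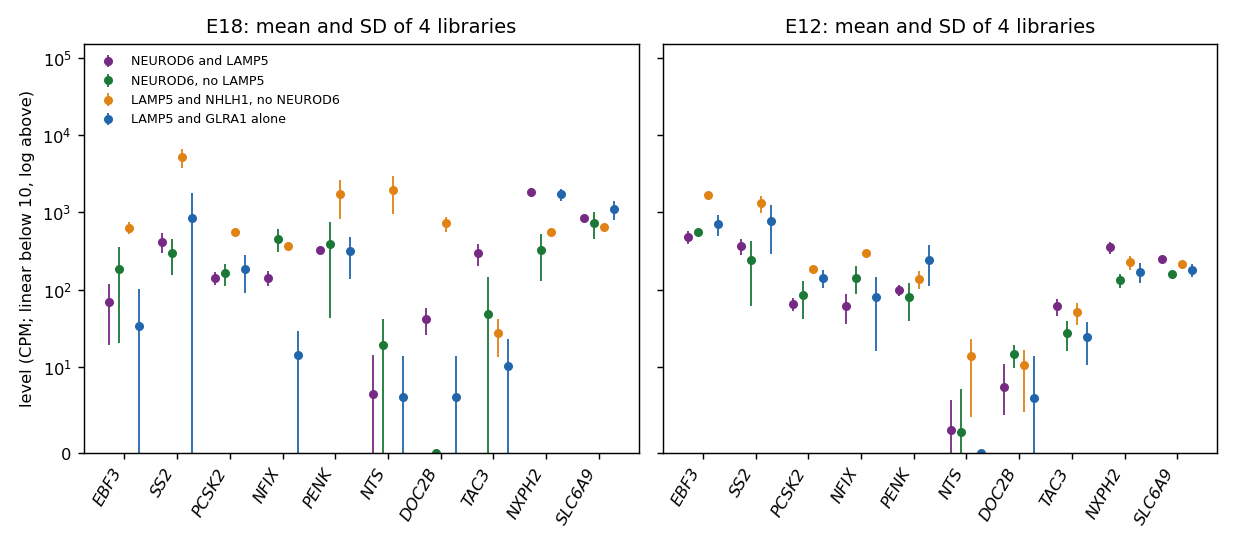
Level of 10 genes in gate cells split by the genes that admitted them, at E18 (left) and E12 (right), in CPM of raw totals (linear below 10, log above; points, mean of 4 libraries; bars, SD). At E18 the cells with LAMP5 and NHLH1 stand apart in NTS (1957 CPM), SS2 (5210 CPM) and DOC2B (722 CPM), while SLC6A9 ranges from 643 to 1099 CPM over the classes.

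Clustered on their own without the gate's genes, the E18 gate cells split into 12 clusters and the E12 gate cells into 8, with leading genes given as a description. The largest E18 clusters were led by NFIB and NEUROD4 (205 cells), HS6ST3 and CNTFR (189 cells) and LYPD1 and STARD10 (163 cells). Others were led by NTS, GAD1, SS2 and PENK (123 cells, 18.7% of them scored as doublets), TAC1 (89 cells), TAC3 and SLC17A8 (76 cells) and DOC2B (44 cells). The E12 clusters were led by C1QL2 and VIP (850 cells), NFIX and NFIB (579 cells), haemoglobin genes, PKIB and NXPH2 (478 cells), POU4F1 and NRN1 (141 cells), BNC2 and TAC3 (140 cells), OXT and LHX1 (86 cells), SLC10A4, MEGF10 and CHAT (59 cells), and SEPT4 and FIBCD1 (57 cells). In the same order, 18.2%, 10.7%, 0.837%, 26.2%, 6.43%, 25.6%, 30.5% and 17.5% of their cells were scored as doublets. A cluster with BNC2, TAC3 and SLC17A8 among its leading genes thus occurred at both stages, with 6.12% of gate cells at E18 and 5.86% at E12. At E12, 1 gate cell had at least 10% haemoglobin UMIs, and its part in the cluster led by haemoglobin genes was not tested.

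Last, E18 gate cells were compared with E12 gate cells, without a block since library numbers do not pair the stages. Of 8298 genes tested, 893 were higher (10.8%) and 801 lower (9.65%) at E18, 20.4% in either direction. Scaling by library totals instead shifted all genes by a median of 0.18 on the log2 scale and gave 1218 higher and 553 lower, so 68.8% of calls were higher in place of 52.7%. In sums of chosen cells, fewer cells of a kind and less RNA per cell cannot be told apart. Stage also goes with the set of libraries, whose smallest cells held 699 to 731 UMIs at E18 and 1106 to 1217 at E12. Stage and library set cannot be told apart here, in the gate's share or in the interaction.

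Glycine genes rose in part: of 6 tested, SLC6A9, GLRA2 and GLRA3 were higher at E18 and GLDC lower, with a median of 1.31 against −0.0071 over all genes. SLC6A9 was at 741, 816, 705 and 825 CPM at E18, against 254, 248, 245 and 235 CPM at E12 (log2 1.65 ± 0.06, adjusted p = 2.46e-20, edgeR). SLC32A1 was at 405, 456, 451 and 520 CPM against 154, 128, 152 and 149 CPM (log2 1.66 ± 0.08, adjusted p = 1.9e-17, edgeR). For both transporters the stages were far apart in every library. GAD1 was at 65.5 ± 14.3 CPM at E18 and 78.0 ± 5.99 CPM at E12 and was not called (log2 −0.24 ± 0.14), and GAD2 was lower (−1.37 ± 0.26).

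Maturation genes were higher at E18 in 10 of 18 tested and lower in 2, with a median of 1.18. The calcium-binding protein CALB2, calretinin, was at 4423, 4899, 4242 and 5150 CPM at E18, against 461, 437, 407 and 514 CPM at E12 (log2 3.37 ± 0.06, adjusted p = 1.42e-28, edgeR). SNAP25, of the vesicle fusion machinery, was at 1448 ± 75.2 CPM at E18 and 510 ± 31.2 CPM at E12, and SYT1, a vesicle calcium sensor, at 1530 ± 92.2 and 644 ± 12.7 CPM. PVALB (log2 4.80) and KLF9 (5.04), a hormone-responsive factor, were higher, and GAP43 (−3.20), of growing axons, was lower. NECAB2 (5.21), SPAG5 (5.20), DOC2B (4.56) and NTS (6.54) had some of the biggest differences, NTS with 355, 313, 756 and 895 CPM at E18 against 4.36, 8.22, 8.08 and 3.26 CPM at E12.

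Most listed transcription factors were lower at E18. Of 33 amacrine and neuronal factors 21 were lower and NFIB alone was higher, with a median of −1.30. PTF1A, which directs amacrine and horizontal fate, was listed at 0 in all 4 E18 libraries, against 51.2, 73.1, 50.5 and 42.4 CPM at E12, at least 51.5-fold lower against a floor of 3 UMIs over the group. PRDM13 was at 121, 117, 95.2 and 101 CPM at E18 against 226, 230, 208 and 202 CPM at E12 (log2 −1.002 ± 0.09, adjusted p = 1.02e-10, edgeR), and EBF3 at 230, 202, 284 and 237 CPM against 971, 996, 827 and 806 CPM (−1.92 ± 0.08, adjusted p = 1.92e-19, edgeR). The PRDM13 value sits on the 2-fold threshold and was called in 8 of 16 alternatives, with log2 differences between −1.41 and −0.82. In sums over all gate cells both genes remained above other TFAP2 cells at E18, as given above, but the E18 gate clusters differed. By raw totals EBF3 was at 887, 1646 and 3469 CPM in the clusters led by NTS, DOC2B and NRN1 (123, 44 and 25 cells). In every other cluster it was at or below 18.2 CPM. PRDM13 ranged from 2.12 CPM in the cluster led by HS6ST3 (189 cells) to 240 CPM in that led by TAC1. Of 27 axon guidance genes 18 were lower and none higher, with a median of −1.38. ROBO2, a Slit receptor, was at 38.8, 57.1, 44.5 and 39.4 CPM at E18 against 313, 390, 426 and 401 CPM at E12. The neuroblast protein DCX (log2 −2.99) and DPYSL3 (−4.00), both of the growing cytoskeleton, were lower as well. Of 19 neurogenesis genes 3 were higher and 6 lower, with a median of −0.20. Over all 8298 genes tested between the stages, 10.8% were higher and 9.65% lower.

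Of 11 ganglion cell markers 9 were lower at E18, with POU4F1 at 1.34, 0, 3.71 and 3.58 CPM against 99.2, 132, 106 and 115 CPM at E12. By raw totals POU4F1 was at 945 CPM in the E12 gate cluster that it led (141 cells, 26.2% scored as doublets). In the other E12 gate cells it was at 14.3 CPM. No E18 gate cluster had POU4F1 above 12.3 CPM. The part of that E12 cluster in the stage difference was not tested. Of 9 glial and progenitor markers 5 were higher, among them GLUL at 102, 93.9, 338 and 94.2 CPM against 7.63, 8.22, 4.04 and 7.61 CPM, with the third E18 library highest. The W-linked gene HINTW was listed at 0 in all 4 E18 libraries and at 689, 671, 648 and 775 CPM in the E12 libraries, at least 649-fold lower. The embryos' sex is not given in the labels, and with this pattern stage and sex cannot be told apart, for genes on the sex chromosomes or elsewhere. VIP was listed at 0 at E18, against 19.6, 15.5, 41.4 and 71.7 CPM at E12.

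**Figure D5:**
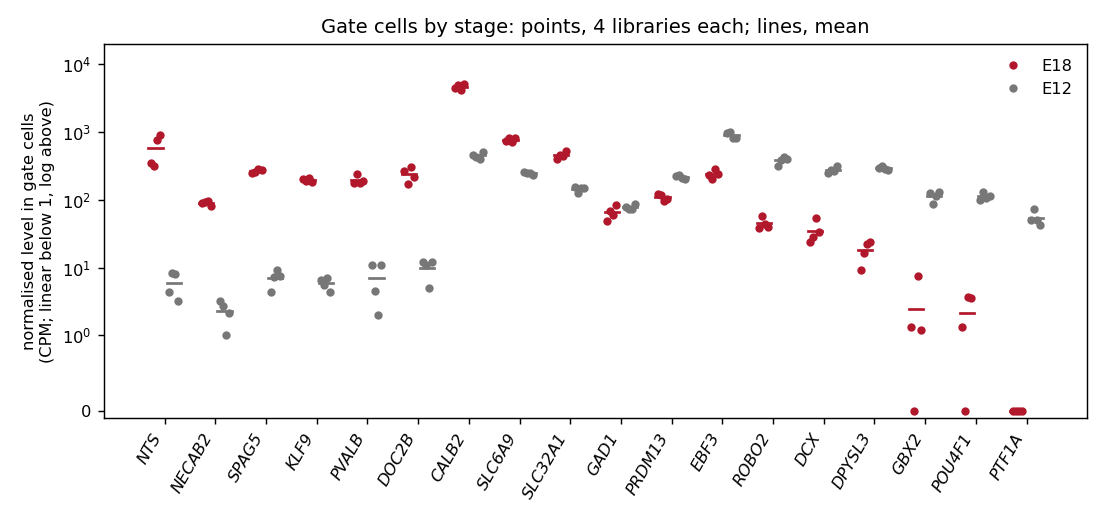
Level of 18 genes in gate cells at E18 and E12 (CPM scaled within the comparison, linear below 1 and log above; points, 4 libraries each; lines, mean). CALB2 lies between 4242 and 5150 CPM at E18 and 407 and 514 CPM at E12, SLC6A9 between 705 and 825 and 235 and 254 CPM, while GAD1 overlaps between the stages and PTF1A is at 0 in all E18 libraries.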

How the data were processed

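Single-cell 3′ libraries were sequenced by the authors and counted with Cell Ranger 2.1.0 on GRCg6a, per the submitters' processing notes. The deposited values are UMI counts per gene and cell for 23726 genes, of which 8314 carry an identifier only; aligner settings beyond this are not given in the sources used here. The E12 libraries held 25226502 to 27655687 UMIs and the E18 libraries 16436527 to 16967777. Deposited counts of the chosen cells were summed per library, scaled by the trimmed mean of M values and tested with edgeR 4.0.16 (quasi-likelihood, low-count filter by expression, library as a block within a stage) in R 4.3.3, with Benjamini-Hochberg adjustment over all genes tested and calls at an adjusted p under 0.05 and at least 2-fold. DESeq2 1.42.0 was an alternative. Steps were tested on simulated counts. In each comparison the 12 most increased and the 12 most decreased called genes could be named. Such a gene needed a symbol, a level of 50 CPM or more where it was higher, and agreement in sign over all libraries (for the stages, groups without overlap). Gate genes were left out, and a gene of the gate comparisons also had to be called against cells without OTX2 and VSX1. Genes of the lists and the given markers were added; 3 genes are not reported here. The members and the lists were chosen with earlier results of these data known. The E18 comparison, the stage difference and the limit of 5 TFAP2 UMIs were added after seeing the data. Doublets were scored against simulated sums (15 neighbours, 30 components), with the top 0.8% per 1000 barcodes marked and kept except in an alternative. Clusters came from 2000 variable genes with leidenalg 0.10.2. Thinning drew 1000 UMIs per cell. Binomial limits cover counting error only, at 95% confidence, and a count of 0 allows 3 counts. No genome of the files' build was used, so no coordinates are given. Gene names were set beside RefSeq GRCg7b, where 18394 (77.5%) matched by symbol.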

Additional observations from a re-analysis of the deposited data

Results flagged for a closer look

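In 7 of 63 groups of 4 libraries 1 library lay apart from the other 3, by its gap as a share of the group's range; chance alone gives about 1 in 20 groups. In E12 gate cells replicate 2 was high for the haemoglobin genes HBA1 (58.5 CPM against 1.90 to 7.17, a gap of 0.907 of the range), HBBA (46.5 CPM against 0 to 5.12, 0.890) and HBM (41.3 CPM against 0 to 6.15, 0.851). Of the E12 gate cells 1 had at least 10% haemoglobin UMIs, so these 3 genes may not count as separate groups. In E18 gate cells NXPH2 was high in replicate 1 (1532 CPM against 1305 to 1328, 0.898), HMX2 in replicate 2 (4.01 CPM against 0, 1) and C1QL3 in replicate 2 (12.02 CPM against 1.31 to 2.51, 0.887). In the other E12 TFAP2 cells TCF4Z was high in replicate 1 (24.4 CPM against 20.99 to 21.4, 0.875).

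The log2 difference of gate cells from other TFAP2 cells was itself different at E18 and E12 for 18 of 30 genes examined, by an interaction term in edgeR. Over all genes it differed for 2660 of 11870 (22.4%). The 30 were no neutral set: they were the genes named at E12, the given markers and the glycine and GABA lists. The GABA genes GAD1 (E18 minus E12 −2.46), GAD2 (−2.30) and SLC6A11 (−2.33) were further below the other cells at E18. Among glycine and shared transmitter genes SLC6A9 (0.90), GLRA2 (1.38), GLRA3 (0.85), GLRA4 (0.52) and SLC32A1 (0.32) stood further above them at E18, GLRA2 having been below them at E12. PRDM13 (0.67), NXPH2 (0.65), SS2 (0.64), EBF3 (0.62), TRHDE (0.61), ARHGAP28 (0.48) and TCF4Z (0.44) were also further above at E18, TMCC3 (−0.64) less so, and VWC2 (−1.92) and CSRP2 (−0.41) further below.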

How the results depend on the processing

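The E18 minus E12 difference in the gate's share kept its direction in 13 of 14 alternatives: 1.99 points with 3 of 4 genes, 4.00 thinned, 7.32 without doublets, 7.57 with at least 2 TFAP2 UMIs, 6.66 points with the replicate block (exact p = 0.125, the smallest for 4 pairs), and 6.57 to 6.71 with 1 library left out (p = 0.0571, the smallest for 3 against 4). As a share of all barcodes, added after seeing the data, it was −0.0820 points (exact p = 0.486). Replicate numbers did not pair the stages: correlations of same-numbered deviations were −0.00153 to 0.01004, and with that replicate block the stage comparison gave 893 higher and 800 lower genes. The 421 genes lower in E12 gate cells were 258 with DESeq2, 264 with 3 of 4 genes, 244 with at least 5 TFAP2 UMIs, 181 with other cells lacking OTX2 and VSX1 and 74 with both conditions; with 1 library left out they were 366 to 381, and the 127 higher were 113 to 124. Without the replicate block they were 406 and 128. The 1371 lower at E18 were 811 with at least 5 TFAP2 UMIs and 753 with both conditions, and 1280 to 1365 with 1 library left out. The stage counts became 1466 higher and 1211 lower without the low-count filter, where 16282 genes were tested, and 422 and 399 with 3 of 4 genes, where 4069 were; with 1 library left out they were 941 to 977 and 818 to 904. For NEUROD6 against LAMP5 cells the 7 higher genes were 0 with DESeq2, 4 with library totals, 3 without the filter, 2 without doublets, 3 without the replicate block and 1 to 8 with 1 library left out (1 without replicate 1). The 10 lower were 3 with DESeq2, 21 without the filter, 6 without doublets and 6 to 13 with 1 library left out (6 without replicate 2).

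Single genes turned over as follows. At E12, SLC17A8 had −0.62 with 3 of 4 genes, GLDC 0.046 with other cells lacking OTX2 and VSX1, and with at least 5 TFAP2 UMIs as well GLDC 0.14, DLL1 0.14, SOX9 0.10 and SLC1A3 0.0815. At E18, CPLX1 had −0.84 with 3 of 4 genes; NTS −0.48, NEUROD4 −0.41 and SV2B 0.16 with at least 5 TFAP2 UMIs; GABRR1 0.14 and SV2B 0.42 with other cells lacking OTX2 and VSX1; and NTS −0.59, GABRR1 0.30, TRPM1 0.53 and SV2B 1.52 with both. The cause was not tested. Of genes named by the rule, 14 of 19 at E12, 21 of 23 at E18, 24 of 24 between stages and 5 of 15 for NEUROD6 against LAMP5 cells kept their call in every alternative that gave a p.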

Other observations

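At E18 the sums over all gate cells held more transcripts of the MHC class I gene BF2, at 49.5, 65.4, 64.0 and 77.9 CPM, against 12.2, 8.91, 11.1 and 11.3 CPM in other TFAP2 cells (log2 2.56 ± 0.16, adjusted p = 3.43e-23, edgeR). By raw totals BF2 was at 314 CPM in the E18 gate cluster led by HS6ST3 (189 cells) and 18.2 CPM in the other gate cells. The calcium channel subunit CACNA2D3 was at 82.3 ± 7.92 CPM in all gate cells and 12.4 ± 1.31 CPM in other TFAP2 cells. SARDH, which turns sarcosine into glycine, was at 79.8 ± 9.48 and 12.9 ± 2.36 CPM in the same order (SD, n = 4 libraries each). Between the stages, the neuronal globin NGB was at 106, 138, 118 and 150 CPM in E18 gate cells against 6.54, 3.65, 9.09 and 6.52 CPM in E12 gate cells, and the acetylcholine receptor gene CHRNA7L at 48.2, 62.2, 68.0 and 52.5 CPM against 4.36, 1.83, 2.02 and 3.26 CPM. The microtubule protein MAP1B was at 61.6, 29.2, 53.2 and 34.6 CPM at E18 against 573, 608, 542 and 560 CPM at E12 (log2 −3.68 ± 0.11, adjusted p = 3.83e-23, edgeR).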
